A study of Cricetulus griseus with 24 samples.

Results

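Procr, the endothelial protein C receptor, was examined with 8 genes that act beside it in the protein C and plasminogen system: Thbd, F2r, F2rl1, F3, Tfpi, Plau, Plaur and Plat. These 9 genes were taken by symbol from the 28037 genes of the count table, and all 9 had a line of counts. Procr was chosen because it had the largest exponential-phase rise of A1 over A0, so its exponential levels are given as a description and were not tested. The other 8 genes were taken for their place in the pathway and are called partners here.

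Antibody-producing Chinese hamster ovary (CHO) cells were compared before and after gene amplification. A0 is 1 clone of antibody-producing CHO DG44. It received a plasmid with the antibody heavy chain and another with the light chain, each with a selectable marker, and it was selected with G418, which was then removed. A1 is its progeny after stepwise amplification with methotrexate, and it therefore shares the earlier history of A0. Whether A1 kept every sequence of A0 was not tested. CHO-S is another CHO line, whose sample titles read NDST, and neither a transgene nor a selection agent is named for it in the labels. Each line was sampled in exponential and in stationary phase. A0 had 4 culture numbers at each phase, and A1 and CHO-S had 3 each. A0 exponential cultures had 2 libraries each, marked RLT (cultures 1 and 2) or Duplicate (cultures 3 and 4) for the second, and these were summed per culture. The study's methods describe triplicate shake flasks, but nothing ties a culture number to a flask, so the p-values measure the spread between these cultures, which may in part be technical.

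Protein C is a plasma zymogen that is activated on cell surfaces by thrombin held on thrombomodulin, the product of Thbd. Procr binds protein C and presents it to that complex, and activated protein C on Procr can cut the thrombin receptor encoded by F2r. Tissue factor, encoded by F3, starts clotting and is held in check by the inhibitor encoded by Tfpi, while Plau and Plat encode the proteases that turn plasminogen into the clot-dissolving enzyme plasmin. These genes are best known from endothelial, smooth muscle and stromal cells, and CHO cells are an ovary-derived line grown here in suspension.

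Counts on genes ranged from 6532373 to 14652646 per library, apart from stationary CHO-S culture 1, which had 1038026 and in which 32.8% of reads fell outside genes. Levels are given as CPM, counts scaled to a common library size with TMM factors, a scale that does not correct for gene length, so levels were compared between groups and never between genes. In bulk RNA, more cells with a transcript and more transcript per cell cannot be told apart. Of the 7 endothelial markers, Kdr and Tie1 had 0 to 2 counts in every culture. The highest count in any culture was 13 for Esam, 20 for Tek, 21 for Cdh5, 72 for Pecam1 and 105 for Vwf. In A0 the 7 together summed to 2.71 to 3.48 CPM at exponential and 2.88 to 3.53 CPM at stationary phase. The sums at these phases were 3.33 to 3.68 and 3.91 to 5.83 CPM in A1, and 4.79 to 5.85 and 6.19 to 13.6 CPM in CHO-S. Of these markers Vwf, the von Willebrand factor gene, was higher in A1 than in A0 at exponential phase (1.24 ± 0.30 on the log2 scale, edgeR adjusted p = 0.0062). It had 0.479 to 0.679 CPM (12 to 16 counts) in A0, 1.31 to 1.45 CPM (16 to 18 counts) in A1 and 2.13 to 2.92 CPM in CHO-S. Vwf was the only one of 7 tested to pass, where 25.7% of all genes passed. None of 5 did at stationary phase (Vwf 0.65 ± 0.36, edgeR adjusted p = 0.19), where 33.7% of all genes passed. The 5 mesenchymal markers, mostly Vim and Fn1, summed to at least 1278 CPM in every culture, the epithelial markers to at most 3.85 CPM and the blood cell markers to at most 0.279 CPM.

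Procr was nearly silent in A0 and CHO-S and clearly transcribed in A1. At exponential phase the 4 A0 cultures had 6, 4, 6 and 1 counts of Procr, or 0.231, 0.16, 0.246 and 0.0425 CPM. The 3 A1 cultures had 389, 354 and 551 counts, or 31.8, 30.2 and 42.0 CPM. The 3 CHO-S cultures had 2, 0 and 1 counts. Every A1 culture lay far above every culture of the other lines, and A0 and CHO-S overlapped. The mean was 0.170 ± 0.0928 CPM (SD, n = 4) in A0, 34.7 ± 6.39 CPM (SD, n = 3) in A1 and 0.0729 ± 0.0715 CPM (SD, n = 3) in CHO-S. Over the pooled counts, 1294 in A1 and 17 in A0, Procr was 203-fold higher in A1, with a 95% exact interval of 126 to 350.0 that covers counting error only. This difference chose the gene. On the log2 scale it was 7.61 by edgeR, and LOC103164451, the third in that order among genes with at least 5 CPM on average, stood at 3.91. Genes below that average are outside this order, and some of them also rose strongly in A1. Calcrl stood at 6.35 by edgeR, and LOC100773383 averaged 0.0507 CPM in exponential A0 and 9.73 CPM in exponential A1.

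Stationary cultures were not used in that choice and were tested. They are of the same lines, and same-numbered A0 cultures correlated across the phases, so the test is not independent of the choice. The 4 A0 cultures had 2, 2, 4 and 3 counts of Procr, or 0.186, 0.168, 0.312 and 0.225 CPM. The 3 A1 cultures had 170, 283 and 265 counts, or 24.2, 22.3 and 22.1 CPM. The 3 CHO-S cultures had 0, 1 and 0 counts. A1 again stood apart from both other lines in every culture. The log2 difference of A1 over A0 was 6.58 ± 0.20 (SE), with an adjusted p of 1.5e-10 (edgeR quasi-likelihood test, Benjamini-Hochberg over 19293 genes). The pooled counts, 718 and 11, gave a ratio of 100.3 (95% exact interval 55.7 to 202, counting error only).

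Some mesenchymal markers were higher in A1 as well. Their sum was 1755 to 1848 CPM in exponential A0 and 1631 to 1747 CPM in exponential A1, and 1278 to 1414 CPM in stationary A0 and 2217 to 2471 CPM in stationary A1. Of the 5 markers, 3 were higher and 1 (Vim) lower in A1 at exponential phase, and 4 were higher at stationary phase, where Col1a1 did not pass (25.7% and 33.7% of all genes passed in these comparisons). Col3a1, a fibrillar collagen gene, had 0.346, 0.24, 0 and 0.17 CPM in exponential A0 and 7.77, 4.78 and 7.01 CPM in A1 (5.04 ± 0.39 on the log2 scale, edgeR adjusted p = 3.5e-07). At stationary phase Col3a1 had 0.0931 to 0.504 CPM in A0 and 8.82 to 14.2 CPM in A1 (5.54 ± 0.32, edgeR adjusted p = 3e-08). In exponential CHO-S, where Procr had 3 counts in all, Col3a1 had 1.9 to 2.5 CPM. Pdgfrb, a growth factor receptor gene, was higher in A1 by 0.75 ± 0.14 at exponential and 1.77 ± 0.13 at stationary phase (edgeR adjusted p = 0.00087 and 3.2e-07), and Fn1, the fibronectin gene, by 0.31 ± 0.08 and 1.27 ± 0.14 (adjusted p = 0.012 and 1.1e-05). Unlike Col3a1, both genes stood higher still in CHO-S, where Procr was nearly silent. Exponential CHO-S had 195 to 202 CPM of Pdgfrb and 1837 to 1963 CPM of Fn1, beside 22.5 to 28.9 and 457 to 468 CPM in A1. Stationary CHO-S had 82.6 to 283 and 2266 to 3003 CPM, beside 25.9 to 32 and 1119 to 1345 CPM in A1. The exponential call of Fn1 was lost without A1 culture 1 or 3 (edgeR adjusted p up to 0.07), and that of Vim without any A1 culture or without A0 culture 2 or 3 (adjusted p up to 0.17). The part of these markers in the difference of Procr was not tested.

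Against CHO-S, stationary A1 had 718 counts of Procr to 1, a ratio of 497 with an interval of 88.9 to 19664. The difference passed the edgeR test (adjusted p = 2.7e-06, and 5.6e-37 without the shallow CHO-S culture). Without that culture 57.4% of all genes passed in this comparison, beside 34.8% with it, so the smaller p is not stronger evidence. Stationary A0 had 11 counts to 1, a ratio of 4.96 with an interval of 0.720 to 213, and this did not pass (adjusted p = 0.12, and 0.13 without the shallow culture). Between A0 and CHO-S a difference in Procr was therefore not detected by the test at this depth. Their stationary cultures did not overlap all the same, at 0.168 to 0.312 CPM in A0 and 0 to 0.0733 CPM in CHO-S. Of all genes, 45.1% did not overlap in this comparison. At exponential phase, described only, the pooled ratio was 2.24 for A0 over CHO-S (17 counts to 3, interval 0.648 to 11.9) and 456 for A1 over CHO-S (1294 counts to 3, interval 156 to 2212).

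Within A1, Procr was lower at stationary than at exponential phase, with no overlap between the phases (30.2 to 42.0 against 22.1 to 24.2 CPM). The pooled ratio of stationary to exponential phase was 0.647 (interval 0.590 to 0.710) in A1 and 1.31 (interval 0.555 to 2.97) in A0, where 2 to 4 counts were set against 1 to 6. The order of the group means was thus exponential A1, stationary A1, then stationary A0, exponential A0, exponential CHO-S and stationary CHO-S, and each neighbouring pair among the last 4 overlapped. Neither kind of A0 library was high: the 8 exponential A0 libraries had between 0 and 4 counts of Procr each.

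**Figure D1:**
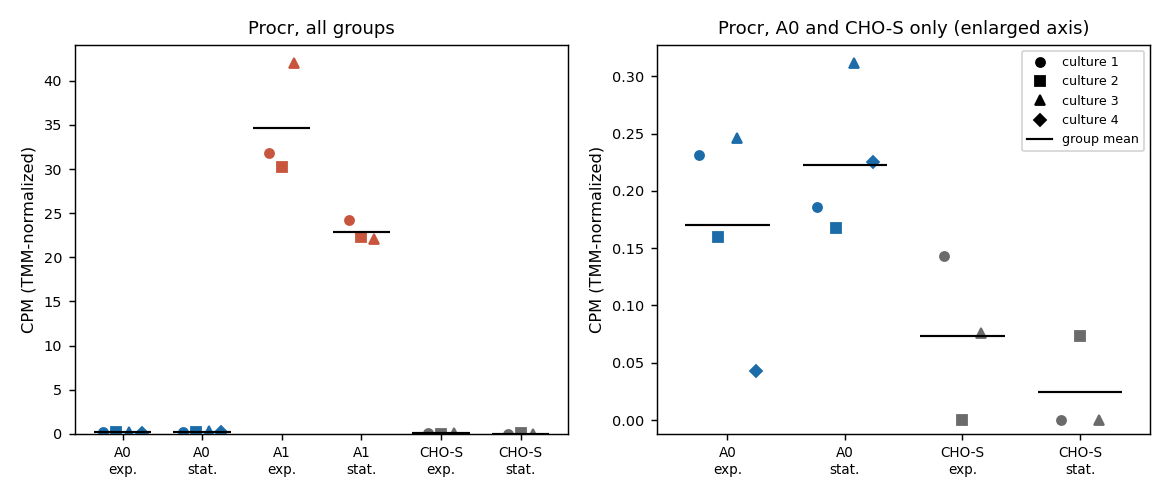
Procr in CPM (counts scaled to a common library size with TMM factors, y axis) for each culture of A0, A1 and CHO-S at exponential and stationary phase, with the group mean as a line. The 6 A1 cultures sit between 22.1 and 42.0 CPM, and the right panel, with an enlarged axis, shows that all A0 and CHO-S cultures lie at or below 0.312 CPM.

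The genes next to Procr moved far less. In the order of RefSeq genes, which comes from another assembly than the counts, the 3 neighbours on each side are Eif6, Mmp24os and Mmp24 on one and LOC118239102, Edem2 (listed there as LOC100753801) and Trpc4ap on the other, and 4 of the 6 have counts here. Edem2, a factor of endoplasmic reticulum quality control, had 94.0, 81.2, 74.3 and 99.6 CPM in exponential A0 and 132, 142 and 154 CPM in exponential A1 (log2 difference 0.71 ± 0.11, edgeR adjusted p = 0.00023), and at stationary phase it had a log2 difference of 0.05 ± 0.07 (adjusted p = 0.67). Trpc4ap was higher in A1 at both phases, by 0.81 ± 0.09 at exponential (edgeR adjusted p = 1.4e-05) and 0.52 ± 0.08 at stationary phase (adjusted p = 0.0002). Eif6, a ribosome maturation factor, differed by 0.31 ± 0.13 at exponential (edgeR adjusted p = 0.1) and rose by 0.33 ± 0.10 at stationary phase (adjusted p = 0.015), a call that was lost without A1 culture 2 (adjusted p = 0.062) or 3 (0.056), while the exponential one passed without A0 culture 1 (0.44, adjusted p = 0.01). Mmp24 passed at neither phase (0.27 ± 0.16 with adjusted p = 0.23, and -0.14 ± 0.14 with adjusted p = 0.49, by edgeR). These differences are at most 0.81 on the log2 scale, beside 7.61 and 6.58 for Procr.

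**Figure D2:**
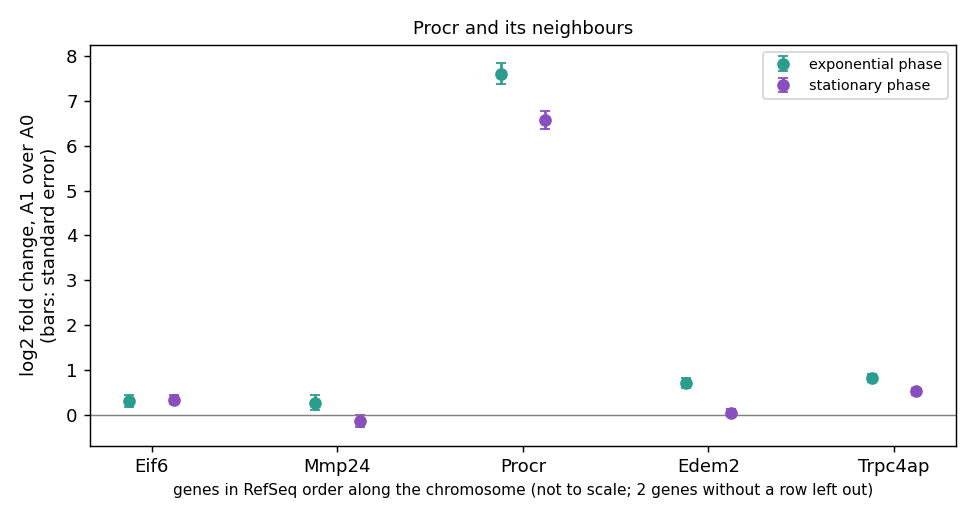
Log2 fold change of A1 over A0 (y axis) with its standard error as a bar, for Procr and the 4 neighbouring genes that have counts, in RefSeq order along the x axis and not to scale. Procr stands at 7.61 at exponential and 6.58 at stationary phase, while its neighbours lie between -0.14 and 0.81.

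Genes with the pattern most like that of Procr over the 20 cultures were LOC100773383 (Pearson r = 0.997), Calcrl (0.989), Ston1 (0.989), LOC107977378 (0.987) and Plekha6 (0.982). These r are of log2(CPM + 0.5) over 12825 genes with at least 1 CPM on average, and they describe a shared split between A1 and the other lines rather than 20 independent points. All 5 genes were under 1 CPM in every A0 and CHO-S culture, so they reached that average through A1 alone. They were picked by this r, so their low A0 and high A1 levels follow from the choice. Calcrl, a receptor subunit for adrenomedullin and calcitonin gene-related peptide, had 0 to 5 counts in each A0 culture and 0 or 1 in CHO-S. In A1 it had 7.61, 9.30 and 9.38 CPM at exponential phase and 13.1, 11.6 and 11.6 CPM at stationary phase. LOC100773383, Ston1, LOC107977378 and Plekha6 averaged 0.0507, 0.109, 0.173 and 0.0205 CPM in exponential A0. Their averages in exponential A1 were 9.73, 5.27, 7.91 and 2.74 CPM. Calcrl lies next to Tfpi in RefSeq order, and Tfpi was lower in A1, as given further on.

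Beyond Procr, the partners did not share a direction between A1 and A0. At exponential phase 5 of the 8 partners passed the test, 1 higher (Thbd) and 4 lower in A1 (Tfpi, Plau, Plaur and Plat), where 25.7% of all 20021 genes tested passed, 12% higher and 13.8% lower. The cultures of 4 of the 8 did not overlap, against 34.3% of all genes. At stationary phase 6 of 8 passed, 2 higher (F2r and F3) and the same 4 lower, against 33.7% of 19293 genes (16% higher and 17.7% lower), and 7 of 8 did not overlap, against 39.9%. The median log2 difference of the partners was -0.22 at exponential phase, beside -0.041 over all genes, and -0.60 at stationary phase, beside -0.002. The difference between A1 and A0 itself depended on phase for 3 of 8 partners (F2r, F3 and Tfpi), against 8.92% of 20978 genes (5.03% with a higher and 3.89% with a lower stationary difference). Under a stricter count filter (filterByExpr of edgeR) the share of genes passing was 36.7% at exponential phase, 47.2% at stationary phase and 15.5% for the dependence on phase. The 8 genes were picked by hand with results of these data known, so the counts of partners describe these genes only.

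**Figure D3:**
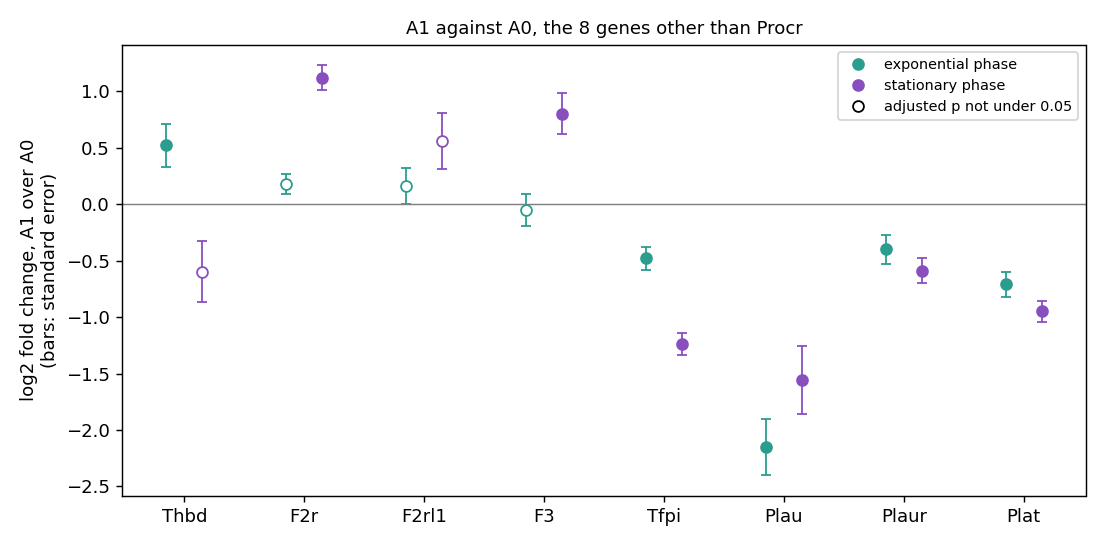
Log2 fold change of A1 over A0 (y axis) with its standard error as a bar for the 8 partners, at exponential and stationary phase, where open points have an adjusted p that is not under 0.05. Tfpi, Plau, Plaur and Plat lie below 0 at both phases, and F2r moves from 0.18 at exponential to 1.12 at stationary phase.

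Thbd, the thrombin-binding cofactor that works with Procr, was transcribed in all 3 lines and was lower in both DG44 lines than in CHO-S. The 4 A0 cultures had 224, 242, 144 and 145 CPM of Thbd at exponential phase, and A1 had 265, 342 and 209 CPM. At stationary phase the A0 cultures had 757, 828, 313 and 338 CPM and A1 had 390.0, 364 and 362 CPM. A0 and A1 overlapped at both phases, and A0 cultures 1 and 2 exceeded cultures 3 and 4 by a wide margin, above all at stationary phase. CHO-S lay higher than every culture of either line, at 1120.2, 961 and 1008 CPM at exponential and 1472, 1968 and 2009.9 CPM at stationary phase.

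At exponential phase Thbd was higher in A1 by 0.52 ± 0.19 on the log2 scale (edgeR adjusted p = 0.049). The call held in only 5 of 9 alternative settings and in 3 of 7 fits that left out a culture. Among others it was lost with A0 cultures 1 and 2 alone (0.21, adjusted p = 0.32), without A1 culture 1 (adjusted p = 0.12) or 2 (0.32, adjusted p = 0.33) and without A0 culture 3 (adjusted p = 0.16) or 4 (adjusted p = 0.13). At stationary phase the difference for Thbd was -0.60 ± 0.27 (edgeR adjusted p = 0.11), and -0.79 without A0 culture 3 (adjusted p = 0.01) or -0.78 without A0 culture 4 (adjusted p = 0.015). It was -1.11 (adjusted p = 2.8e-15) against A0 cultures 1 and 2 and 0.19 (adjusted p = 0.025) against A0 cultures 3 and 4, so the direction turned with the A0 cultures used.

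Compared with CHO-S, Thbd was lower by 2.44 on the log2 scale in A0 and by 1.93 in A1 at exponential phase, as differences of -2.44 ± 0.17 (edgeR adjusted p = 2.2e-08) and -1.93 ± 0.10 (adjusted p = 5.1e-14). At stationary phase the differences were -1.71 ± 0.34 for A0 (edgeR adjusted p = 0.0026, and -1.81 without the shallow CHO-S culture) and -2.31 ± 0.16 for A1 (adjusted p = 2.6e-05, and -2.44 without it). Thbd rose from exponential to stationary phase in each line, by 1.56 ± 0.27 in A0 (edgeR adjusted p = 0.00026), 0.47 ± 0.09 in A1 (adjusted p = 0.00013) and 0.82 ± 0.14 in CHO-S (adjusted p = 0.013, and 0.95 without the shallow culture). The CHO-S call was lost without any other single culture (adjusted p 0.076 to 0.12), and the A1 call with DESeq2 (adjusted p = 0.064). The test of whether that rise differed between A1 and A0 gave -1.12 ± 0.36 (edgeR adjusted p = 0.055), which passed without stationary A0 culture 3 (-1.32, adjusted p = 0.0096) or 4 (-1.31, adjusted p = 0.012) and without exponential A0 culture 1 (-1.22, adjusted p = 0.042) or 2 (-1.27, adjusted p = 0.033).

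F2r encodes protease-activated receptor 1, the receptor that thrombin cuts and that activated protein C on Procr can also cut. It fell at stationary phase in A0, and no phase difference passed the test in A1. The A0 cultures had 65.9, 74.9, 80.3 and 78.1 CPM of F2r at exponential phase and 32.1, 31.6, 40.6 and 36.6 CPM at stationary phase. The A1 cultures had 90.4, 80.4 and 82.9 CPM and then 64.1, 81.3 and 84.9 CPM. CHO-S had 119.6, 131 and 113 CPM and then 178, 116 and 113 CPM. The 2 phases did not overlap in A0 and did so in A1 and CHO-S, and at each phase all A1 cultures lay above all A0 cultures and below all CHO-S cultures.

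The log2 difference of F2r between A1 and A0 was 0.18 ± 0.09 at exponential phase (edgeR adjusted p = 0.2) and 1.12 ± 0.11 at stationary phase (adjusted p = 4.5e-06), a 2.17-fold higher level, and the 2 differences differed from each other by 0.94 ± 0.15 (adjusted p = 0.00035). From exponential to stationary phase F2r changed by -1.10 ± 0.11 in A0 (edgeR adjusted p = 8.8e-07), by -0.11 ± 0.08 in A1 (adjusted p = 0.32) and by 0.15 ± 0.20 in CHO-S (adjusted p = 0.69, and -0.08 without the shallow culture). Below CHO-S, A0 stood at -0.69 ± 0.09 at exponential (edgeR adjusted p = 1.9e-05) and -1.94 ± 0.19 at stationary phase (adjusted p = 2.8e-05, and -1.68 without the shallow culture). A1 stood at -0.52 ± 0.06 (edgeR adjusted p = 5.8e-08) and -0.82 ± 0.22 (adjusted p = 0.022, and -0.59 without it) for F2r, and the stationary call of A1 was lost without A1 culture 1 (adjusted p = 0.094), 2 (0.069) or 3 (0.054).

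F2rl1 encodes protease-activated receptor 2, which trypsin-like proteases and the tissue factor complex can cut. It went down at stationary phase in A0 and A1 and up in CHO-S. The A0 cultures had 4.66, 5.03, 4.67 and 4.92 CPM of F2rl1 at exponential and 1.58, 2.18, 1.56 and 2.40 CPM at stationary phase. The A1 cultures had 5.81, 4.44 and 5.87 CPM and then 3.55, 2.44 and 2.83 CPM, and CHO-S had 1.93, 1.5 and 2.35 CPM and then 4.13, 5.28 and 5.01 CPM. The phases did not overlap in any line, and CHO-S was the lowest line at exponential and the highest at stationary phase.

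The phase difference of F2rl1 was -1.32 ± 0.20 in A0 (edgeR adjusted p = 5.3e-05), -0.89 ± 0.21 in A1 (adjusted p = 0.00089) and 1.39 ± 0.22 in CHO-S (adjusted p = 0.0085, and 1.41 without the shallow culture). The CHO-S call was lost without stationary culture 2 (adjusted p = 0.084) or 3 (0.052) and without exponential culture 1 (0.066) or 2 (0.059). Against CHO-S, F2rl1 was higher at exponential phase in A0 (1.32 ± 0.19, edgeR adjusted p = 4.3e-05) and A1 (1.46 ± 0.21, adjusted p = 1.7e-06). At stationary phase it was lower in A0 (-1.39 ± 0.25, edgeR adjusted p = 0.0015, and -1.39 without the shallow culture) and A1 (-0.84 ± 0.22, adjusted p = 0.019, and -0.89 without it), the latter call being lost with DESeq2 (adjusted p = 0.062) and without A1 culture 2 (0.088) or 3 (0.076) or CHO-S culture 2 (0.12) or 3 (0.071). Between A1 and A0 no difference in F2rl1 passed, at 0.16 ± 0.16 at exponential (edgeR adjusted p = 0.52) and 0.56 ± 0.25 at stationary phase (adjusted p = 0.11), although the stationary cultures did not overlap.

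F3, tissue factor, is the cell-surface starter of the clotting cascade. Its level in A1 was the highest of the 3 lines at stationary phase. The A0 cultures had 13.1, 14.3, 19.5 and 14.8 CPM of F3 at exponential and 8.10, 9.58, 14.6 and 14 CPM at stationary phase. The A1 cultures had 15.7, 16 and 13.2 CPM and then 21, 19 and 21.5 CPM, and CHO-S had 10.2, 7.44 and 9.64 CPM and then 14.4, 8.65 and 7.86 CPM. All stationary A1 cultures lay above all stationary A0 and CHO-S cultures, while exponential A1 lay within the range of A0. As with Thbd, stationary A0 cultures 1 and 2 stood apart from 3 and 4, here on the low side.

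The log2 difference of F3 between A1 and A0 was -0.05 ± 0.14 at exponential phase (edgeR adjusted p = 0.85) and 0.80 ± 0.18 at stationary phase (adjusted p = 0.0026), a 1.75-fold higher level. These 2 differences differed by 0.85 ± 0.24 (edgeR adjusted p = 0.024), a call that was lost without stationary A1 culture 1 (adjusted p = 0.055) or 3 (0.067), exponential A1 culture 3 (0.086), stationary A0 culture 2 (0.051) or exponential A0 culture 3 (0.055). F3 rose by 0.47 ± 0.11 at stationary phase in A1 (edgeR adjusted p = 0.00093). In A0 it changed by -0.42 ± 0.18 (edgeR adjusted p = 0.082), and by -0.44 with the culture number as a replicate block (adjusted p = 0.0014), -0.55 without stationary A0 culture 3 (adjusted p = 0.038) and -0.53 without stationary A0 culture 4 (adjusted p = 0.047). Over CHO-S, F3 was higher in A0 at exponential phase (0.77 ± 0.16, edgeR adjusted p = 0.001) and did not pass at stationary phase (0.34 ± 0.27, adjusted p = 0.34, and 0.50 without the shallow culture). A1 was higher at both phases, by 0.70 ± 0.12 (edgeR adjusted p = 3.3e-05) and 1.19 ± 0.19 (adjusted p = 0.0019, and 1.27 without the shallow culture).

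Tfpi, the inhibitor of the tissue factor complex, rose at stationary phase in A0, and no phase difference passed the test in A1. The A0 cultures had 184, 195, 172 and 148 CPM of Tfpi at exponential and 322, 335, 261 and 257 CPM at stationary phase. The A1 cultures had 122, 130.1 and 123 CPM and then 122, 125 and 128 CPM. CHO-S had 152, 126 and 139 CPM and then 945, 383 and 347 CPM, the highest of these in the shallow culture. A1 lay below A0 in every culture at both phases, and its 2 phases overlapped almost fully.

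Tfpi was lower in A1 than in A0 by -0.48 ± 0.10 on the log2 scale at exponential (edgeR adjusted p = 0.0026) and by -1.24 ± 0.10 at stationary phase (adjusted p = 5.9e-07), which is 2.37-fold lower. The 2 differences differed by -0.76 ± 0.15 (edgeR adjusted p = 0.0019). With all 6 groups in one fit neither the exponential difference (adjusted p = 0.12) nor the dependence on phase (adjusted p = 0.17) passed. The phase difference of Tfpi was 0.74 ± 0.11 in A0 (edgeR adjusted p = 8.4e-05), 0.01 ± 0.06 in A1 (adjusted p = 0.91) and 2.01 ± 0.39 in CHO-S (adjusted p = 0.017), where it was 1.40 without the shallow culture and lost the call without stationary culture 2 (adjusted p = 0.052) or exponential culture 1 (0.096), 2 (0.11) or 3 (0.095). Against CHO-S at exponential phase, A0 was higher (0.34 ± 0.10, edgeR adjusted p = 0.013) and A1 lower (-0.16 ± 0.06, adjusted p = 0.023). The A0 call was lost without A0 culture 2 (0.27, adjusted p = 0.054) or CHO-S culture 2 (0.28, adjusted p = 0.096) or 3 (0.33, adjusted p = 0.057), and the A1 call without A1 culture 3 (-0.15, adjusted p = 0.098) or CHO-S culture 1 (-0.09, adjusted p = 0.21) or 3 (-0.15, adjusted p = 0.062). At stationary phase A1 was lower by -2.18 ± 0.37 (edgeR adjusted p = 0.0027, and -1.57 without the shallow culture), and for A0 the value of -0.93 ± 0.32 (adjusted p = 0.038) shrank to -0.30 without that culture and lost the call without any 1 A0 culture (adjusted p 0.06 to 0.094).

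Plau, the urokinase-type plasminogen activator, showed the largest fall among the partners from A0 to A1. The A0 cultures had 7.16, 8.43, 7.34 and 7.17 CPM of Plau at exponential and 8, 8.15, 3.51 and 6.30 CPM at stationary phase. In A1 there were 1.64, 0.854 and 2.52 CPM (20, 10 and 33 counts) and then 2.70, 1.65 and 2.41 CPM. CHO-S had 1.29, 1.17 and 0.608 CPM and then 3.10, 1.10 and 2.03 CPM. All A0 cultures lay above all A1 and CHO-S cultures at both phases, and A1 overlapped with CHO-S.

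Plau was lower in A1 than in A0 by -2.15 ± 0.25 on the log2 scale at exponential phase (edgeR adjusted p = 2e-05), 4.44-fold, and by -1.56 ± 0.30 at stationary phase (adjusted p = 0.001), 2.95-fold. A0 exceeded CHO-S by 2.88 ± 0.22 at exponential (edgeR adjusted p = 8.3e-08) and 2.01 ± 0.43 at stationary phase (adjusted p = 0.004, and 2.15 without the shallow culture). A1 did not pass against CHO-S, at 0.72 ± 0.37 (edgeR adjusted p = 0.1, and 1.01 with adjusted p = 0.016 without A1 culture 2) and 0.49 ± 0.38 (adjusted p = 0.35, and 0.57 without that culture). Growth phase did not pass for Plau in any line, with differences of -0.23 ± 0.21 in A0 (edgeR adjusted p = 0.41), 0.39 ± 0.31 in A1 (adjusted p = 0.38) and 0.58 ± 0.44 in CHO-S (adjusted p = 0.43).

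Plat, the tissue-type plasminogen activator, was also lower in A1, by less. The A0 cultures had 95.4, 93.8, 108 and 125 CPM of Plat at exponential and 94.8, 92.0, 83.3 and 82.9 CPM at stationary phase. In A1 there were 58.1, 67.2 and 69.1 CPM and then 48.9, 40.7 and 48.4 CPM. CHO-S had 27.4, 23.9 and 24.6 CPM and then 24.8, 50.8 and 54.2 CPM, the lowest of the last 3 in the shallow culture. At exponential phase the lines fell in the order A0, A1 and CHO-S with no overlap, and at stationary phase A0 stayed on top and A1 overlapped with CHO-S.

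The log2 difference of Plat between A1 and A0 was -0.71 ± 0.11 at exponential (edgeR adjusted p = 0.00032) and -0.95 ± 0.09 at stationary phase (adjusted p = 3.3e-06), which is 1.94-fold lower. Over CHO-S, A0 was higher by 2.07 ± 0.12 (edgeR adjusted p = 3.1e-09) and 0.94 ± 0.22 (adjusted p = 0.0064, and 0.77 without the shallow culture) at the 2 phases. A1 was higher by 1.35 ± 0.08 at exponential phase (edgeR adjusted p = 2.8e-13) and did not pass at stationary phase (-0.01 ± 0.24, adjusted p = 0.98), where without the shallow culture it was lower (-0.22, adjusted p = 0.029). Plat fell at stationary phase in A1 by -0.48 ± 0.08 (edgeR adjusted p = 1.3e-05) and rose in CHO-S by 0.87 ± 0.23 (adjusted p = 0.045, and 1.04 without the shallow culture), a call lost without any other single CHO-S culture (adjusted p 0.18 to 0.23). In A0 the phase difference of -0.27 ± 0.11 did not pass (edgeR adjusted p = 0.055), and with the culture number as a replicate block it did (-0.26, adjusted p = 0.016), as it did without exponential A0 culture 1 (-0.31, adjusted p = 0.037) or 2 (-0.32, adjusted p = 0.039).

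Plaur encodes the receptor that holds urokinase at the cell surface. It was far lower in both DG44 lines than in CHO-S, and a little lower in A1 than in A0. The A0 cultures had 25.8, 26.5, 23.7 and 19.1 CPM of Plaur at exponential and 27.4, 24.1, 23.2 and 24.7 CPM at stationary phase. The A1 cultures had 18.2, 16.6 and 19.3 CPM and then 15.1, 16.7 and 17.6 CPM, and CHO-S had 116, 104 and 103 CPM and then 86.7, 143 and 137 CPM. At exponential phase A0 culture 4 reached into the range of A1, and at stationary phase the 2 lines did not overlap.

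Plaur differed between A1 and A0 by -0.40 ± 0.13 at exponential phase (edgeR adjusted p = 0.032), a call that held in only 1 of 7 fits that left out a culture (-0.49 without A0 culture 4, adjusted p = 0.0036, and 0.058 to 0.14 without each other culture). At stationary phase the difference was -0.59 ± 0.11 (edgeR adjusted p = 0.00061). Below CHO-S, A0 stood at -2.17 ± 0.11 and -2.34 ± 0.18 at the 2 phases (edgeR adjusted p = 1.1e-09 and 6.1e-06, and -2.48 at stationary phase without the shallow culture). A1 stood at -2.59 ± 0.07 and -2.93 ± 0.22 (edgeR adjusted p = 7.3e-19 and 4e-05, and -3.10 without it) for Plaur. Growth phase did not pass in A0 (0.05 ± 0.12, edgeR adjusted p = 0.77), A1 (-0.10 ± 0.11, adjusted p = 0.54) or CHO-S (0.20 ± 0.19, adjusted p = 0.53), and without the shallow culture it passed in CHO-S (0.38, adjusted p = 9.7e-10).

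**Figure D4:**
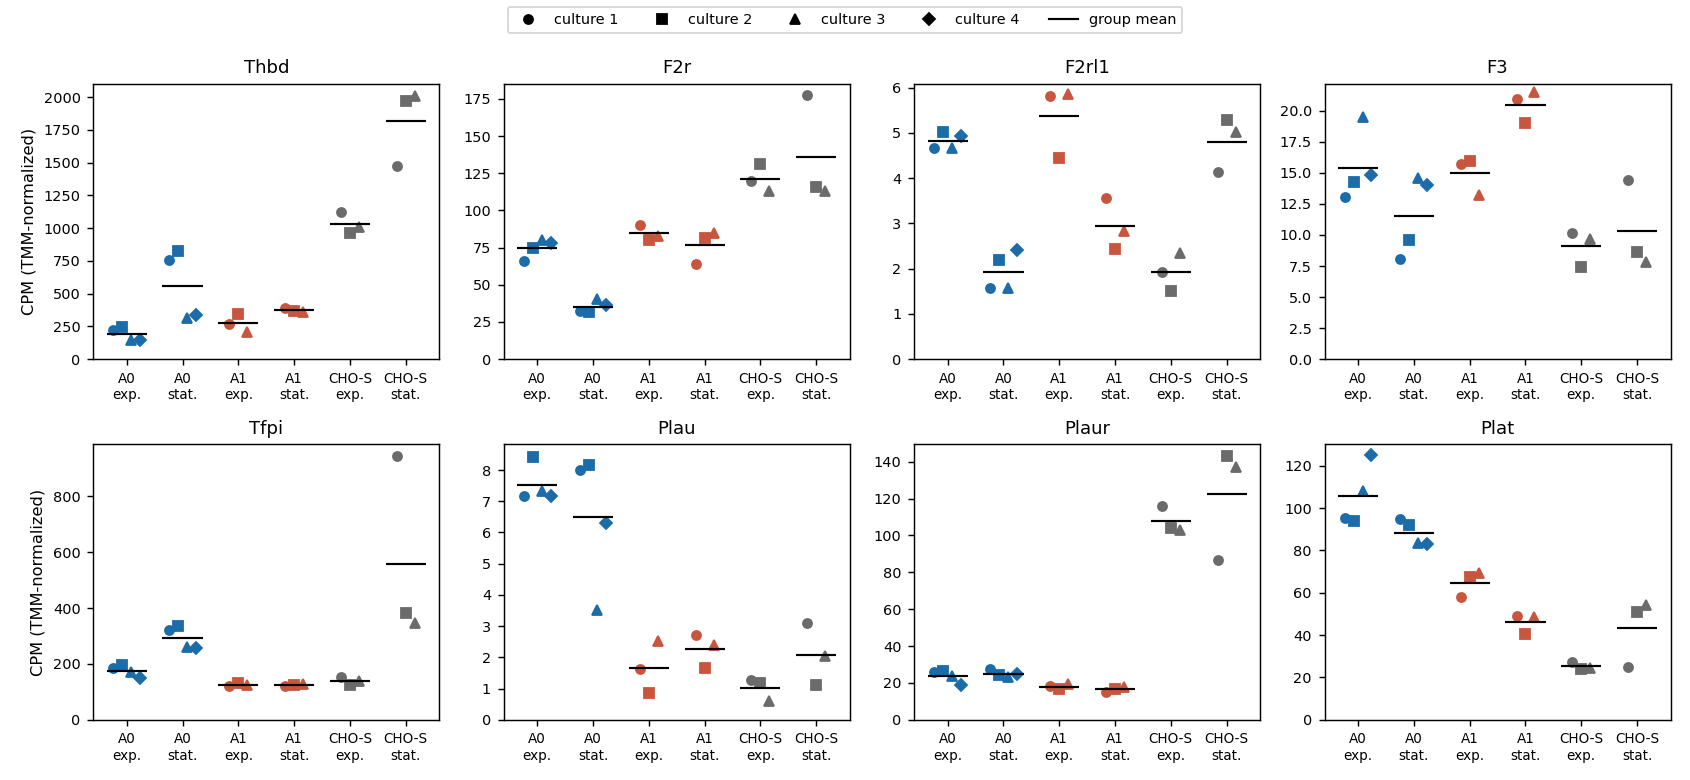
CPM (counts scaled to a common library size, y axis from 0, a separate scale for each gene) of the 8 partners in each culture of A0, A1 and CHO-S at exponential and stationary phase, with the group mean as a line. Plau and Plat are highest in A0, Thbd and Plaur are highest in CHO-S, and Thbd splits A0 cultures 1 and 2 from 3 and 4.

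Set against CHO-S, the partners differed in direction. The comparisons of A0 and of A1 with CHO-S share the CHO-S cultures, and their values are given side by side. At exponential phase 8 of 8 partners passed in A0, 5 higher and 3 lower, where 49.2% of 20052 genes passed (27.4% higher and 21.8% lower). In A1 7 of 8 passed, 3 higher and 4 lower, where 57.2% of 18488 genes passed (30.0% higher and 27.1% lower). Cultures did not overlap for 7 of 8 in A0 (53.5% of all genes) and 6 of 8 in A1 (61.9% of all genes). At stationary phase 7 of 8 passed in A0, 2 higher and 5 lower (40.0% of all genes, 20.7% higher and 19.3% lower), and 6 of 8 in A1, 1 higher and 5 lower (34.8% of all genes, 18.2% higher and 16.6% lower), with no overlap for 7 and 6 of them against 45.1% and 48.8%. Without the shallow CHO-S culture 7 partners passed in each line, where the share of all genes was 51.8% for A0 and 57.4% for A1. Under the stricter filterByExpr filter, with all cultures, the share of genes passing was 65.2% for A0 and 74.2% for A1 at exponential phase. At stationary phase it was 51.4% and 44.6%. Thbd, F2r and Plaur, a cofactor and 2 receptors, were below CHO-S in both lines at both phases, and Plau was above CHO-S in A0 at both.

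**Figure D5:**
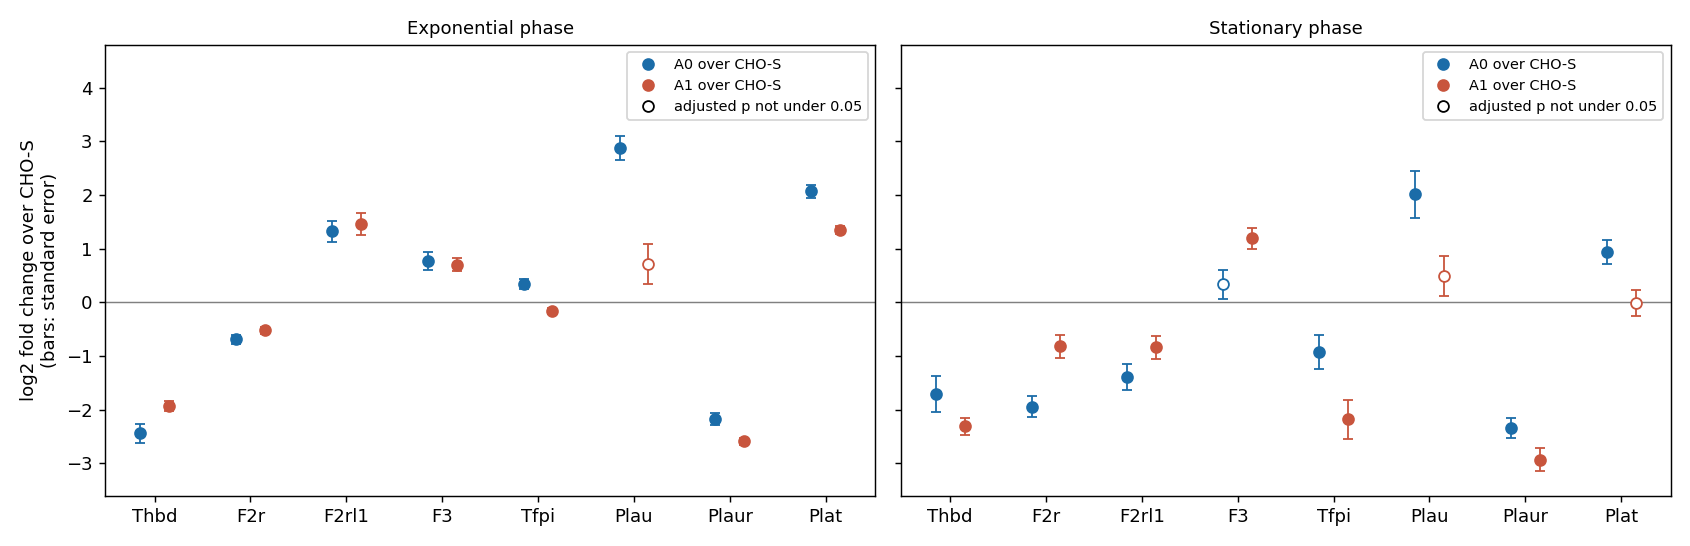
Log2 fold change over CHO-S (y axis) with its standard error as a bar for the 8 partners in A0 and A1, at exponential phase (left) and stationary phase (right), where open points have an adjusted p that is not under 0.05. Thbd, F2r and Plaur lie below 0 in all 4 comparisons, and F2rl1 lies above 0 at exponential and below 0 at stationary phase in both lines.

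Between growth phases, 4 of 8 partners passed in each line when the culture number was not used. In A0 these were Thbd and Tfpi, which rose, and F2r and F2rl1, which fell (37.6% of 20326 genes passed, 17.6% up and 20% down). Same-numbered A0 cultures correlated across the phases, however. With the culture number as a replicate block F3 and Plat fell as well, so that 6 of 8 passed in A0 (42.6% of all genes). In A1 Thbd and F3 rose and F2rl1 and Plat fell (33.4% of 18548 genes, 15.6% up and 17.8% down). In CHO-S Thbd, F2rl1, Tfpi and Plat rose and none fell (13.3% of 17367 genes, 6.81% up and 6.48% down). The CHO-S share rests on single cultures, since it was 47.7%, with 5 partners passing, without the shallow culture and 0.00% to 3.36%, with 0 or 1 partners passing, without any other. Under the stricter filterByExpr filter the share of genes passing was 53.3% in A0, 47.2% in A1 and 20.5% in CHO-S. Cultures of the 2 phases did not overlap for 4 partners in A0 (35.7% of all genes), 4 in A1 (43.1%) and 3 in CHO-S (36.4%). Thbd was the partner that rose in all 3 lines.

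The soluble proteins that Procr and its partners act on, and their inhibitors, were for the most part at or near 0. Of 32 further genes of these pathways, 31 had a line of counts, 22 of these averaged under 1 CPM over the A0 and A1 cultures, and 2 had no count in any culture: Plg, which encodes plasminogen, and Serpina5, the protein C inhibitor. Proc, protein C itself, had at most 10 counts in any culture. Pros1, protein S, the cofactor of activated protein C, was well transcribed: A0 had 90.2, 93.2, 90.5 and 95.4 CPM of Pros1 at exponential and 178, 172, 156 and 148 CPM at stationary phase, and A1 had 67.0, 92.3 and 71.7 CPM and then 112, 73.6 and 84.1 CPM. All stationary A1 cultures lay below all stationary A0 cultures in Pros1 (-0.88 ± 0.12, edgeR adjusted p = 7.2e-05), while the exponential difference of -0.26 ± 0.11 did not pass (adjusted p = 0.081, and 0.015 without A1 culture 2), and the 2 differences differed by -0.61 ± 0.17 (adjusted p = 0.024).

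Serpine2, an inhibitor of plasminogen activators and thrombin, had at most 3 counts in any culture. Tfpi2, a relative of Tfpi, had at most 2 counts in any A0 or A1 culture and 8, 9 and 8 counts in exponential CHO-S.

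Of the 32 further genes, 3 of 25 tested passed between A1 and A0 at exponential phase, against 25.7% of all genes, and 5 of 23 at stationary phase, against 33.7%. None of these reached 2-fold with at least 1 CPM, so the genes named next were chosen after their values were seen. Lrp1, the endocytic receptor that clears activator and inhibitor complexes, was higher in A1 at both phases: A0 had 135, 136, 159 and 167 CPM and A1 had 279, 256 and 285 CPM at exponential phase (0.87 ± 0.10, edgeR adjusted p = 1.4e-05), and the stationary difference was 0.84 ± 0.08 (adjusted p = 2.4e-06). Ggcx, the vitamin K-dependent carboxylase, was lower in A1 at exponential phase (-0.71 ± 0.18, edgeR adjusted p = 0.0077, and 0.053 without A1 culture 2). At stationary phase the plasminogen-binding proteins S100a10 (0.75 ± 0.09, edgeR adjusted p = 1.7e-05) and Plgrkt (0.51 ± 0.13, adjusted p = 0.0081) were higher in A1, and Pros1 and Anxa2, the membrane partner of S100a10 (-0.26 ± 0.08, adjusted p = 0.02, and 0.062 or 0.11 without A1 culture 1 or 2), were lower. The difference of S100a10 between the lines depended on phase (1.01 ± 0.22, edgeR adjusted p = 0.0041), since it was -0.27 ± 0.18 at exponential phase (adjusted p = 0.3, and -0.42 with adjusted p = 0.042 without A0 culture 4).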

How the data were processed

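Polyadenylated RNA was made into stranded TruSeq libraries. Per the study's methods, the authors aligned reads to C_griseus_v1.0 with STAR 2.5.4b and counted them per gene with HTSeq 0.7.2, and they deposited the counts without normalization. Reads with several alignments are not counted by HTSeq, and the strand setting is not given in the sources used here, so overlapping and antisense genes are uncertain. The 5 summary lines of HTSeq entered neither library sizes nor tests, and they hold 2.31% to 11.5% of reads as not aligned, 11.9% to 32.8% as outside genes, 0.357% to 0.403% as ambiguous and 12.7% to 14.8% as aligned more than once, per library.

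The 24 libraries gave 20 cultures. For each pair of groups, the genes tested had 1 count or more in 2 or more libraries and varied, and the tool was edgeR 4.0.16 in R 4.3.3 (TMM normalization, quasi-likelihood test, two-sided, Benjamini-Hochberg adjustment over all genes tested, threshold 0.05). The dependence on phase of the difference between A1 and A0 was tested as an interaction over the 4 groups. All 9 genes passed the filter in every comparison made with them. SE is the absolute log2 change divided by the square root of F. CPM were normalized over the 20 cultures together. For Procr, ratios of summed counts carry exact binomial intervals. No main test of Procr used exponential libraries, but the alternative with all 6 groups in one fit did. Intervals cover counting error only. Python 3.11.15, numpy 2.4.6, pandas 2.3.3, scipy 1.17.1 and matplotlib 3.10.9 served for the rest.

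Alternatives were DESeq2 1.42.0 with default parameters (the study's tool), RLE size factors, filterByExpr, no filter, the culture number as a replicate block, all 6 groups in one fit, the first A0 library alone, A0 cultures 1 and 2 or 3 and 4 alone, and leaving out each culture. Fits with fewer cultures estimate the spread from fewer values, so a smaller p in them is not stronger evidence. Deviations from the group means of same-numbered A0 cultures correlated across the phases (0.189 to 0.432 for the 4 numbers, genes of at least 5 CPM). No other pair of groups did so for each number, so outside A0 a value with the block stands among the alternatives only.

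The members, the further pathway genes and the markers were chosen with earlier results of these data known. Named were the 9 members, Serpine2, Plg, Proc, Pros1 and Tfpi2, further pathway genes past the threshold with at least 2-fold and 1 CPM between A1 and A0, 3 neighbours on each side of Procr and the 5 genes most like Procr. Gene names and neighbours come from the RefSeq annotation of CriGri-PICRH-1.0, another build than that of the counts, and coordinates are left out for this reason. A motif search in promoters was not run, and sequences were not used here. Some genes that the rule would name are not reported here.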

Additional observations from a re-analysis of the deposited data

Results flagged for a closer look

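Plau in exponential A0 had 1 culture apart from the others: culture 2 had 8.43 CPM against 7.16 to 7.34 CPM, a gap of 0.859 of the whole range. Chance gives such a gap in about 1 of 20 groups, and 18 groups were examined. All 4 of these cultures lay above all A1 cultures.

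The difference between A1 and A0 depended on growth phase for 3 partners by edgeR's interaction test. For F2r the stationary minus the exponential log2 difference was 0.94 (adjusted p = 0.00035). For F3 it was 0.85 (edgeR adjusted p = 0.024), and for Tfpi it was -0.76 (edgeR adjusted p = 0.0019). Leaving out each culture in turn gave 0.86 to 1.05 for F2r and -0.82 to -0.69 for Tfpi, past the threshold in all 14 fits, and 0.72 to 0.98 for F3, past it in 9 of 14. With all 6 groups in one fit the value of Tfpi was -0.75 (adjusted p = 0.17).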

How the results depend on the processing

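The 2 stationary calls of Procr against A0 and CHO-S were past the threshold in every alternative and every fit that left out a culture, and stationary A0 against CHO-S in none. Of these, the fit with all 6 groups also holds the exponential cultures, whose values chose Procr. The number of partners called moved by over 1.5 times as follows, and the cause was not tested. Between A1 and A0 at exponential phase it was 3 of the partners with all 6 groups in one fit (20.2% of all genes), and 3 to 4 when a culture was left out (15.9% to 30.6% of all genes), with 3 without A1 culture 1 or 2 or A0 culture 3. Between phases it was 2 in A1 with all 6 groups (11.6% of all genes), 1 in CHO-S with the replicate block (2.02%) and 0 to 5 in CHO-S when a culture was left out (0.00% to 47.7%, and 0 or 1 partners without any culture but the shallow one). For the interaction it was 5 with A0 cultures 1 and 2 only (22.7% of all genes).

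Directions turned mostly where the value was near 0. With A0 cultures 1 and 2 only, F3 between A1 and A0 at exponential phase became 0.12, F3 between A0 and CHO-S at stationary phase -0.03, and the phase difference in A0 -0.15 for Procr, 0.04 for Plau and -0.03 for Plaur, Proc between A1 and A0 at exponential phase became -0.03 and Ggcx at stationary phase 0.20. With A0 cultures 3 and 4 only, Thbd between A1 and A0 at stationary phase became 0.19, and at exponential phase Plgrkt became -0.07, Anxa2 0.01 and S100a10 0.13. With DESeq2, Plat between A1 and CHO-S at stationary phase became 0.02 and the phase difference of F3 in CHO-S 0.06. With all 6 groups in one fit, the phase difference of Tfpi in A1 became -0.01. With the replicate block these values were 0.06 for Plat and 0.10 for F3, and between A1 and A0 at stationary phase 0.04 for Ggcx. The interaction of Thbd passed with the block (adjusted p = 9.6e-16), but the numbers make pairs only in A0, where the block changed the phase calls of F3 and Plat and of no other partner. With all 6 groups in one fit, adjusted p rose to 0.12 for Tfpi and 0.16 for Thbd between A1 and A0 at exponential phase, and to 0.35 for Thbd and 0.13 for F3 between phases in A1.

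Leaving out each culture turned some signs. Between A1 and A0 these ranged, at exponential phase, from -0.12 to 0.08 for F3, -0.20 to 0.58 for Proc and -0.02 to 0.17 for Plgrkt, and at stationary phase from -2.82 to 0.19 for Tfpi2 and -0.10 to 0.05 for Ggcx. Between A1 and CHO-S at stationary phase they ranged from -0.02 to 0.72 for Plau, -0.22 to 0.14 for Plat and -0.08 to 0.23 for Pros1. Between phases they ranged from -0.03 to 0.11 for Plaur in A0 and -0.01 to 0.04 for Tfpi in A1, and in CHO-S from -2.77 to 0.14 for Procr, -0.08 to 0.26 for F2r and -0.15 to 0.08 for F3. DESeq2 gave no adjusted p for Tfpi2 between A1 and A0. Depth limits Procr in A0 and CHO-S, where each culture had 6 counts or fewer.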
